A study of Mus musculus with 3 samples.

Results

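The genes described here encode the protein folding machinery of the endoplasmic reticulum (ER) and the unfolded protein response that controls it. They are the rows of the deposited expression table whose symbol was one of 31 listed genes; no measured value enters this rule, though the list was drawn up with earlier results of these data known. All 31 had a row, among 24067 genes in the table. The data were mRNA sequencing of mouse primary pre-osteoclasts, the mononuclear cells from which osteoclasts form by fusion. Per the labels, the 3 groups were sheared cells with Ift88 shRNA, sheared cells with control shRNA, and static cells with control shRNA, each with 1 library. All 3 cultures carried an shRNA and were grown with MCSF and RANKL for 2 days, and the sheared cultures then received orbital shear stress, the flow made by swirling a dish, for 24 hours. The control shRNA groups have the genotype label WT and the other group Ift88 knockdown. The number of animals behind the primary cells and the vector of the shRNA are not given in the labels. Ift88 encodes a carrier protein of intraflagellar transport, which builds the primary cilium. No static culture with Ift88 shRNA is part of the comparison, and a knockdown effect present without flow cannot be told apart from one that needs flow. With 1 library a group no difference has a replicate check, and no p-value is given.

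Proteins bound for secretion, for the plasma membrane or for lysosomes enter the ER through the Sec61 channel, are folded by chaperones and oxidised by disulfide isomerases, and are returned to the cytosol for destruction when they fail to fold. When unfolded protein accumulates, the membrane sensors IRE1 (Ern1), PERK (Eif2ak3) and ATF6 start a response in which XBP1, ATF4 and cleaved ATF6 raise transcription of the folding and degradation genes. Osteoclasts secrete acid hydrolases and proteases in large amounts and build an extensive lysosomal and plasma membrane, so this machinery carries much of their output. The sensors are switched on at the protein level, and IRE1 acts by splicing Xbp1 mRNA, neither of which a gene-level abundance shows.

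Levels are the FPKM values that the authors deposited, that is, sequenced fragments per kilobase of transcript relative to a fixed total. Being per length, they can be compared between genes of a library. Comparison between libraries also depends on the scaling to each library's total, which abundant genes can shift. Ratios of FPKM carry a 95% counting interval in brackets, from estimated fragments, which covers counting error only. A gene was counted as higher or lower when (FPKM + 1) differed by at least 1.2-fold, a log2 ratio of 0.26, among the 10358 genes that averaged 1 FPKM or more. Estimated depth was 34980000 fragments in the sheared Ift88 shRNA library, 35230000 in the sheared control and 34770000 in the static control. The 31 genes rest on 727 to 76235 estimated fragments per library. Ift88 was at 1.197 FPKM in sheared cells with Ift88 shRNA, 2.71 in sheared cells with control shRNA and 2.98 in static cells. Its ratio with Ift88 shRNA over the sheared control was 0.442 (0.356 to 0.551), in the direction of the label. Osteoclast lineage markers, 8 of 12 of which averaged 1 FPKM or more, summed to 413 FPKM with Ift88 shRNA under shear, 339 in the sheared control and 446 in the static control. Over these 8, the median log2 ratio of the sheared over the static control was -0.25, with 7 lower, 3 of them by 1.5-fold, and 1 higher. That of Ift88 shRNA over control shRNA under shear was 0.42, with 7 higher, 3 of them by 1.5-fold, and 1 lower. Monocyte and macrophage markers, all 8 averaging 1 FPKM or more, summed to 33031 FPKM with Ift88 shRNA under shear, 31790.2 in the sheared control and 33432 in the static control, with Csf1r at 272 FPKM with Ift88 shRNA under shear, 251 in the sheared control and 248 in the static control. Over the 8, the sheared control was above the static control for 2 and below it for 6, with a median log2 ratio of -0.083. Against the sheared control, Ift88 shRNA was above for 6 and below for 2. Calcr, a marker of mature osteoclasts, was near 0, at 0.0259 FPKM with Ift88 shRNA under shear, 0.0344 in the sheared control and 0.117 in the static control. Of 8 markers of plasma and B cells, which are rich in these ER transcripts, Igj, Mzb1 and Ms4a1 were listed at 0 FPKM in all 3 libraries, and 1, Sdc1, averaged 1 FPKM or more, at 29.7 FPKM with Ift88 shRNA under shear, 30.1 in the sheared control and 31.3 in the static control. Dendritic cell markers, 3 of 7 of which averaged 1 FPKM or more, summed to 141 FPKM with Ift88 shRNA under shear, 123 in the sheared control and 138 in the static control, with Flt3 listed at 0. Endothelial markers summed to at most 6.06 FPKM and those of T and NK cells to at most 0.0711 FPKM in any library. Neutrophil markers, 3 of 7 of which averaged 1 FPKM or more, summed to 25.1 FPKM with Ift88 shRNA under shear, 20.8 in the sheared control and 52.98 in the static control. Osteoblast and stromal markers, 4 of 8 averaging 1 FPKM or more, summed to 9.99 FPKM with Ift88 shRNA under shear, 7.65 in the sheared control and 10.4 in the static control. The part of these marker differences in the results below was not tested.

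The ER folding genes were abundant and stood at nearly the same level in all 3 libraries. All 31 had a mean FPKM of at least 1, the lowest being Ern1 with a mean of 8.79 FPKM. Together they summed to 4902 FPKM in the sheared Ift88 shRNA library, 4931 in the sheared control and 4893 in the static control. That was 0.925%, 0.9099% and 0.914% of the summed FPKM of those libraries, in the same order. In bulk RNA a change in the number of cells of a type and one in RNA per cell cannot be told apart. For every one of the 31, the highest of the 3 libraries was less than 1.2 times the lowest, whereas 79.9% of all genes tested and 88.7% of the 5875 genes at or above the mean level of Ern1 lay within that range. For 24 of the 31 the highest library was less than 1.1 times the lowest, against 44.9% of all genes and 55.5% of those at or above the mean level of Ern1. The widest range was that of Pdia4, whose highest library was 1.198 times its lowest, followed by Ern1 at 1.19 and Sdf2l1 at 1.19. The narrowest was that of Dnajc3, at 1.01.

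**Figure D1:**
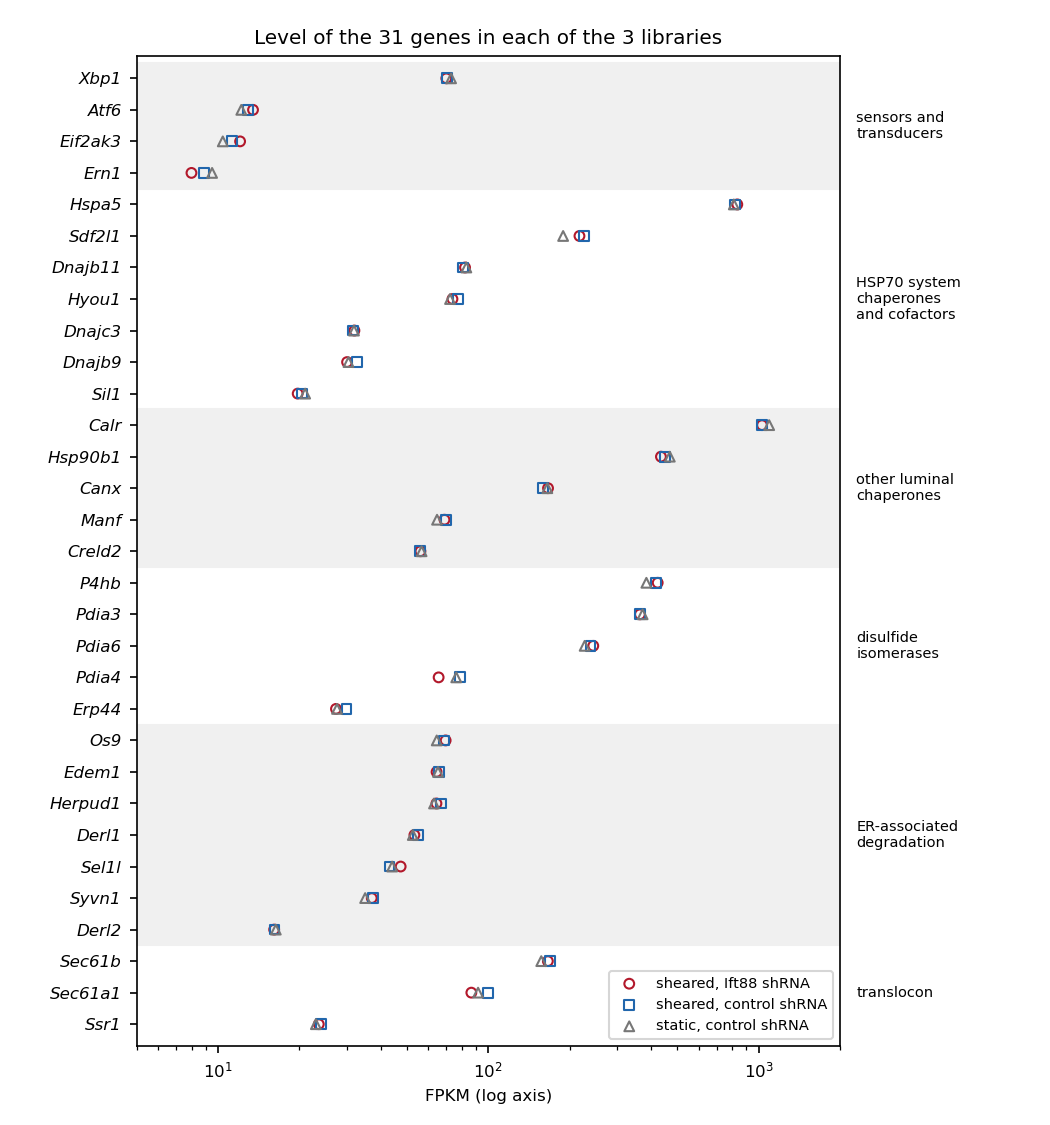
FPKM (log axis) of each of the 31 genes in the 3 libraries, grouped by role and ordered by mean level within each role; each symbol is 1 library. The 3 symbols of a gene nearly coincide, while levels range from 7.98 FPKM for Ern1 with Ift88 shRNA to 1094 FPKM for Calr in the static control.

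The same 7 genes headed the order of levels in each library, namely Calr, Hspa5, Hsp90b1, P4hb, Pdia3, Pdia6 and Sdf2l1. The order among these 7 did not change between libraries. At the other end Erp44, Ssr1, Sil1, Derl2, Atf6, Eif2ak3 and Ern1 were the 7 lowest in each library, again in one order. The 3 membrane sensors were thus the scarcest transcripts of the set, and chaperones and disulfide isomerases the most abundant.

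Among the sensors and their transducers, the summed level was 104 FPKM in the sheared Ift88 shRNA library, 103 in the sheared control and 105 in the static control. Ern1, the IRE1 kinase and endonuclease that splices Xbp1, was at 7.98 FPKM in sheared cells with Ift88 shRNA, 8.88 in sheared cells with control shRNA and 9.52 in static cells. It was lowest with Ift88 shRNA, with ratios of 0.899 (0.845 to 0.957) over the sheared control there and 0.933 (0.879 to 0.991) for the sheared over the static control. Eif2ak3, the PERK kinase that phosphorylates the initiation factor eIF2 alpha, had the opposite order, at 12.1 FPKM with Ift88 shRNA under shear, 11.3 in the sheared control and 10.4 in the static control. Its ratio with Ift88 shRNA over the sheared control was 1.07 (1.002 to 1.14), and that of the sheared over the static control was 1.08 (1.01 to 1.16). Its exons overlap those of Gm43292 on the opposite strand, and without the strand setting reads of this neighbour may be included. Atf6, a membrane-anchored transcription factor released by cleavage in the Golgi, was at 13.5 FPKM with Ift88 shRNA under shear, 12.95 in the sheared control and 12.2 in the static control, again highest with Ift88 shRNA. Xbp1, the transcription factor gene whose mRNA IRE1 splices, was at 69.96 FPKM in sheared cells with Ift88 shRNA, 70.2 in sheared cells with control shRNA and 72.9 in static cells. The deposited Xbp1 value joins the gene's 2 listed RefSeq transcripts, so spliced and unspliced forms are not separated here.

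Hspa5 encodes BiP, the ER member of the HSP70 family that also holds the sensors inactive. It was the second most abundant transcript of the set, at 834 FPKM in sheared cells with Ift88 shRNA, 818 in sheared cells with control shRNA and 809.8 in static cells. The ratio of the sheared over the static control was 1.01 (0.999 to 1.02), and that of Ift88 shRNA over control shRNA under shear was 1.02 (1.01 to 1.03). At about 68508 estimated fragments in the static control, the counting error of Hspa5 is small, and the shear interval includes 1.

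The cofactors of BiP were all less abundant than BiP itself. Sdf2l1, an ER protein that binds BiP with its DnaJ partners, was at 217 FPKM in sheared cells with Ift88 shRNA, 225 in sheared cells with control shRNA and 189 in static cells, with the highest shear ratio of the set, 1.19 (1.15 to 1.23). Both sheared libraries were above the static one, and the ratio of Ift88 shRNA over control shRNA under shear was 0.965 (0.934 to 0.997). On the log2(FPKM + 1) scale the shear value was 0.25, just inside the limit, and 2.37% of all genes tested had a higher one. Dnajb9 (ERdj4), a DnaJ cofactor that restrains IRE1, was at 30.05 FPKM with Ift88 shRNA under shear, 32.7 in the sheared control and 30.4 in the static control, so the sheared control stood above the other two. Hyou1, a large HSP70-like chaperone that exchanges nucleotide on BiP, was at 73.7 FPKM with Ift88 shRNA under shear, 77.4 in the sheared control and 72.2 in the static control, also highest in the sheared control. For the other 3 cofactors all intervals include 1. Dnajb11, a DnaJ chaperone of the ER lumen, was at 82.1 FPKM with Ift88 shRNA under shear, 80.7 in the sheared control and 82.97 in the static control. Dnajc3 (p58IPK), a co-chaperone that also restrains PERK, was at 31.98 FPKM with Ift88 shRNA under shear, 31.6 in the sheared control and 31.9 in the static control. Sil1, the other nucleotide exchange factor of BiP, was at 19.7 FPKM with Ift88 shRNA under shear, 20.4 in the sheared control and 21.02 in the static control.

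The lectin chaperones, GRP94, Manf and Creld2 summed to 1756 FPKM in the sheared Ift88 shRNA library, 1766 in the sheared control and 1850.2 in the static control, so both sheared libraries were below the static one. Calr, the soluble lectin chaperone and calcium store calreticulin, was the most abundant gene of the set, at 1029 FPKM in sheared cells with Ift88 shRNA, 1031 in sheared cells with control shRNA and 1094 in static cells. Both sheared libraries were lower than the static one, with a ratio of 0.942 (0.933 to 0.952) between the control libraries, and the ratio with Ift88 shRNA under shear, 0.998 (0.988 to 1.01), has an interval that includes 1. Hsp90b1 (GRP94), the ER HSP90 that folds integrins and Toll-like receptors, was at 435 FPKM with Ift88 shRNA under shear, 450.4 in the sheared control and 469 in the static control. Canx, the membrane-bound partner of calreticulin, was at 166 FPKM with Ift88 shRNA under shear, 159 in the sheared control and 165 in the static control, so it was lowest in the sheared control. Manf, a secreted ER stress factor, was at 68.9 FPKM with Ift88 shRNA under shear, 69.8 in the sheared control and 64.7 in the static control, with a shear ratio of 1.08 (1.04 to 1.12). Creld2, a small stress-induced ER protein, was at 56.1 FPKM with Ift88 shRNA under shear, 55.9 in the sheared control and 56.7 in the static control, and all its intervals include 1. Manf shares exon bases with Rbm15b on the same strand and with 4930524O07Rik on the other, and Hsp90b1 with Gm15344 and Gm25745 on the same strand and 1810014B01Rik on the other, so these 2 values may hold reads of a neighbour.

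The disulfide isomerases carried the lowest ratio of the set. Pdia4 (gene ID 12304, chromosome 6, 47796141 to 47813512 in GRCm38), an isomerase also called ERp72, was at 65.5 FPKM in sheared cells with Ift88 shRNA, 78.5 in sheared cells with control shRNA and 76.1 in static cells. The Ift88 shRNA library was below both control shRNA libraries, with a ratio of 0.835 (0.804 to 0.867) over the sheared control and 0.861 (0.829 to 0.894) over the static control. The control libraries differed by 1.03 (0.995 to 1.07). The log2 ratio for Ift88 shRNA was -0.26, just inside the limit; with ratios centred on the median gene it was -0.27, just past it. Of all genes tested, 2.44% had a lower one. P4hb, the main protein disulfide isomerase, was at 423 FPKM with Ift88 shRNA under shear, 418 in the sheared control and 384 in the static control, so both sheared libraries lay above the static one. Pdia6, an isomerase that dampens IRE1 and PERK, was at 245 FPKM with Ift88 shRNA under shear, 239 in the sheared control and 227 in the static control. Pdia3 (ERp57), the isomerase that works with calreticulin and calnexin on glycoproteins, was at 364 FPKM with Ift88 shRNA under shear, 365 in the sheared control and 372 in the static control. Erp44, which retains client proteins and oxidases from the early Golgi, was at 27.3 FPKM with Ift88 shRNA under shear, 29.9 in the sheared control and 27.6 in the static control, highest in the sheared control. In sum this group was at 1125 FPKM in the sheared Ift88 shRNA library, 1129.9 in the sheared control and 1088 in the static control.

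The genes of ER-associated degradation were at 352 FPKM in the sheared Ift88 shRNA library, 353 in the sheared control and 341 in the static control, summed over 7 genes. Sel1l, the scaffold of the ubiquitin ligase complex, had the highest knockdown ratio of the set, at 47.4 FPKM in sheared cells with Ift88 shRNA, 43.2 in sheared cells with control shRNA and 44.1 in static cells, a ratio of 1.099 (1.07 to 1.13). Syvn1 (HRD1), the ubiquitin ligase that Sel1l holds, was at 37.1 FPKM with Ift88 shRNA under shear, 37.4 in the sheared control and 35.1 in the static control, with both sheared libraries slightly above the static one. Os9, a lectin that delivers glycoproteins to that complex, was at 69.6 FPKM with Ift88 shRNA under shear, 68.5 in the sheared control and 64.5 in the static control. The shear ratio was 1.07 (1.02 to 1.12) for Syvn1 and 1.06 (1.02 to 1.103) for Os9. Herpud1, a stress-induced recruiter of the complex, was at 64.3 FPKM with Ift88 shRNA under shear, 66.7 in the sheared control and 63.02 in the static control. Edem1, which directs trimmed glycoproteins to disposal, was at 64.4 FPKM with Ift88 shRNA under shear, 65.7 in the sheared control and 65.2 in the static control. The derlins are membrane proteins of the exit path. Derl1 was at 53.3 FPKM with Ift88 shRNA under shear, 54.997 in the sheared control and 52.6 in the static control, a shear ratio of 1.05 (1.01 to 1.09). Derl2 was at 16.2 FPKM with Ift88 shRNA under shear, 16.2 in the sheared control and 16.4 in the static control, and all its intervals include 1. Derl2 shares exon sequence with Mis12 and Syvn1 with Mrpl49, both on the opposite strand, and since how strand was counted is not given, these 2 values are uncertain in the same way.

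All 3 translocon genes were above the static control in the sheared control library. So were 46.0% of all genes tested and 50.6% of those at or above the mean level of Ern1. Sec61a1 (gene ID 53421, chromosome 6, 88503607 to 88518800 in GRCm38), the pore of the channel, was at 86.6 FPKM in sheared cells with Ift88 shRNA, 99.6 in sheared cells with control shRNA and 91.7 in static cells. The sheared control was the highest of the 3 libraries and the Ift88 shRNA library the lowest, with ratios of 0.869 (0.845 to 0.894) for Ift88 shRNA over the sheared control and 1.09 (1.06 to 1.12) for the sheared over the static control. Exons of Sec61a1 overlap those of Gm44170 on the opposite strand, so its value may also hold reads of a neighbour. Sec61b, the small beta subunit of the channel, was at 166 FPKM with Ift88 shRNA under shear, 169 in the sheared control and 157 in the static control. Ssr1, a subunit of the translocon-associated protein complex, was at 23.6 FPKM with Ift88 shRNA under shear, 24.1 in the sheared control and 23.04 in the static control. For Sec61b and Ssr1 the intervals of the knockdown ratio, 0.981 (0.926 to 1.04) and 0.979 (0.948 to 1.01), include 1.

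Set as a whole against static cells, sheared cells with control shRNA had 0 of the 31 genes higher and 0 lower by 1.2-fold. Over all 10358 genes tested, 1.94% were higher and 2.26% lower by that much, 4.20% in all. At that share a set of 31 would hold about 1 gene past the limit, so a count of 0 is near the background. At 1.5-fold the share of all genes was 0.454%, and 0 of the 31 reached it. At the looser limit of 1.1-fold, 1 gene (Sdf2l1) was higher and 0 were lower, against 10.3% and 12.4% of all genes. The log2 ratio was above 0 for 19 of the 31, with a median of 0.063, where 46.0% of all genes were above 0 with a median of -0.011. Of the 5875 genes at or above the mean level of Ern1, 50.6% were above 0, with a median of 0.0015. The ratios ran between -0.090 for Ern1 and 0.25 for Sdf2l1. Their robust SD across the 31 genes was 0.077, against 0.11 across all genes and 0.101 across those at or above the mean level of Ern1. The counting interval lay above 1 for 16 of the 31 genes and below 1 for 5. It lay above 1 for 14.0% and below 1 for 17.9% of all genes with estimated fragments. Of the 5875 genes at or above the mean level of Ern1, it lay above 1 for 1164 and below 1 for 1160. Here and in the comparisons below, any of the 5875 genes without estimated fragments stay in that total and count in neither direction. Counting intervals narrow as fragments increase, so small differences in deeply sequenced genes can exclude 1. The part of depth in the counts of the 31 genes was not tested. By role, the median log2 ratio was 0.11 for the translocon, 0.071 for the disulfide isomerases and 0.063 for ER-associated degradation. It was 0.014 for the HSP70 system, 0.013 for the sensors and -0.054 for the other luminal chaperones.

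**Figure D2:**
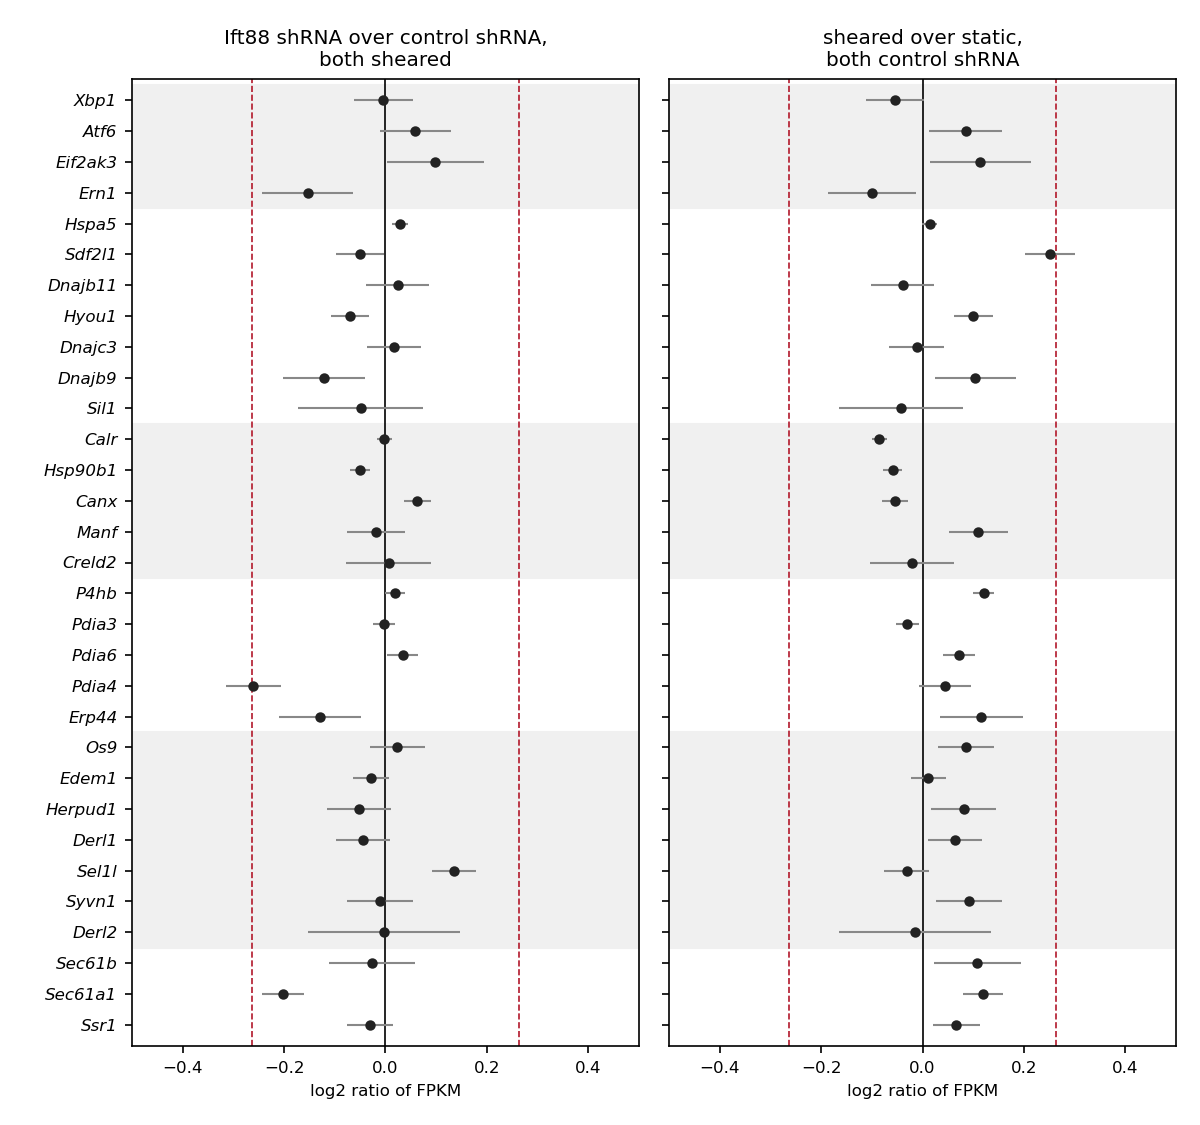
Log2 ratio of FPKM for each of the 31 genes, Ift88 shRNA over control shRNA under shear (left) and sheared over static with control shRNA (right); points are ratios of 1 library over 1 library, bars are 95% counting intervals and dashed lines mark 1.2-fold. No point lies past a dashed line; Pdia4 on the left and Sdf2l1 on the right come closest.

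With Ift88 shRNA against control shRNA, both under shear, 0 of the 31 genes were higher and 0 lower by 1.2-fold. Of all genes tested, 3.25% were higher and 2.29% lower at that limit, 5.54% in all, which again puts a count of 0 near the background. At 1.5-fold the share of all genes was 0.483%. At 1.1-fold, 0 were higher and 2 lower, Pdia4 and Sec61a1, against 13.4% and 9.92% of all genes. The log2 ratio was above 0 for 11 of the 31 and below 0 for 20, with a median of -0.011, where 53.6% of all genes were above 0 with a median of 0.010. Of the 5875 genes at or above the mean level of Ern1, 51.5% were above 0, with a median of 0.0040. With equal totals after leaving out the 100 most abundant genes, 15 were above 0 and 16 below, with a median of -0.00021. These ratios ran between -0.26 for Pdia4 and 0.13 for Sel1l, with a robust SD of 0.052 against 0.11 across all genes. The counting interval lay above 1 for 5 genes and below 1 for 8, against 18.4% and 13.5% of all genes. Of the 5875 genes at or above the mean level of Ern1, it lay above 1 for 1223 and below 1 for 1080. Both comparisons share the sheared control library and are not independent. Of the 31, 13 were highest in that library, 9 in the Ift88 shRNA library and 9 in the static control. For 5 of the 13, namely Hyou1, Dnajb9, Sdf2l1, Erp44 and Sec61a1, the counting intervals of both ratios exclude 1. The same counts were not made over all genes, so neither has a background to be set against. The sheared control also had the largest FPKM sum over all genes. That sum was 541869, against 529816 with Ift88 shRNA under shear and 535106 in the static control.

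Sheared cells with Ift88 shRNA differed from static cells with control shRNA in both shear and shRNA. Between these libraries 0 of the 31 were higher by 1.2-fold and 0 lower, against 4.79% and 4.48% of all genes, 9.27% in all. At 1.5-fold the share of all genes was 0.743%. At 1.1-fold 3 were higher, with ratios of 1.16 (1.08 to 1.24) for Eif2ak3, 1.15 (1.11 to 1.19) for Sdf2l1 and 1.101 (1.09 to 1.12) for P4hb. At the same limit 2 were lower, with 0.839 (0.789 to 0.892) for Ern1 and 0.861 (0.829 to 0.894) for Pdia4, against 16.9% of all genes higher and 15.7% lower. The log2 ratio was above 0 for 17 of the 31, against 49.8% of all genes, with a median of 0.0086. Of the 5875 genes at or above the mean level of Ern1, 51.5% were above 0, with a median of 0.0049. The counting interval lay above 1 for 10 and below 1 for 7 of the 31, against 21.2% and 19.6% of all genes. Of the 5875 genes at or above the mean level of Ern1, it lay above 1 for 1537 and below 1 for 1318. Among the sensors, Ern1 had the lowest log2 ratio of the set in this comparison and Eif2ak3 one near the highest. This comparison shares a library with each of the others.

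**Figure D3:**
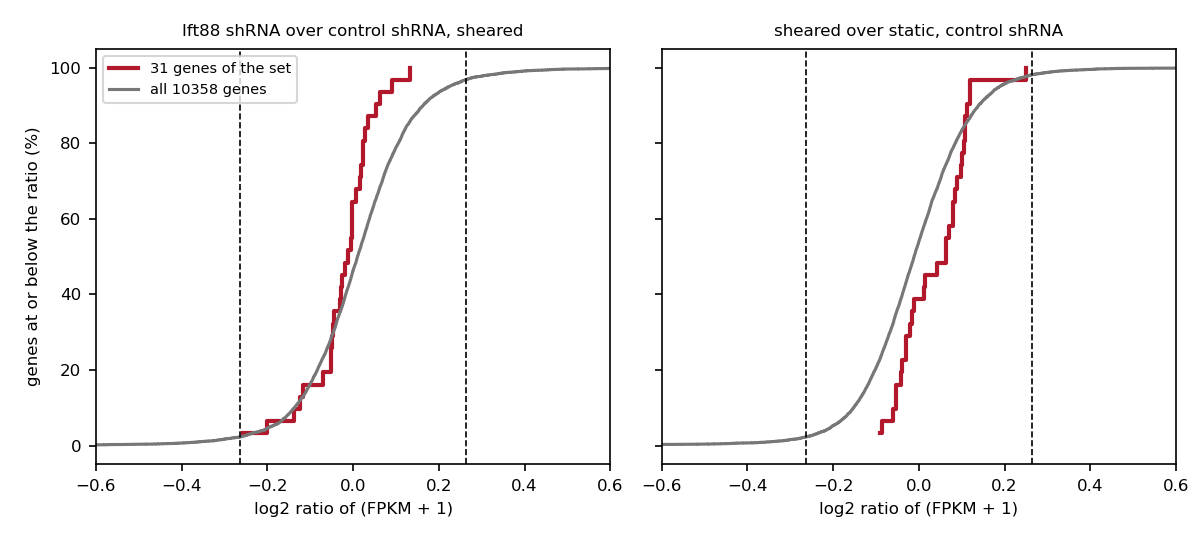
Cumulative share of genes (%) at or below a log2 ratio of (FPKM + 1), for the 31 genes (red) and all 10358 genes tested (grey); left, Ift88 shRNA over control shRNA under shear; right, sheared over static with control shRNA; dashed lines mark 1.2-fold. The red curves stay between the dashed lines; on the right the red curve lies to the right of the grey one over most of its range (medians 0.063 for the 31 genes and -0.011 for all genes).

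Promoters of many ER stress genes hold DNA elements through which ATF6 and XBP1 act. The ER stress response element (ERSE) is CCAAT and CCACG separated by 9 bases, bound by NF-Y at the first and ATF6 or XBP1 at the second part. In the related ERSE-II, ATTGG is followed after 1 base by CCACG. Windows of 250 bases before to 50 after the gene's start (RefSeq, GRCm38.p6) were matched for 25 of the 31 genes, and both strands were searched. The others were Sec61a1, Atf6, Manf, Derl1, Hyou1 and Sil1. An exact ERSE was found in 8 of the 25, where 0.119% of all 32851 windows held one (39 windows). They are shown as the element that these 8 genes have in common, written 5′ to 3′ on the strand of the element, with both parts in capitals and 5 flanking bases on each side; Calr, Creld2 and the nearer Hsp90b1 element are on the strand opposite to the gene.
Hspa5 (chr2:34772020-34772048, plus strand): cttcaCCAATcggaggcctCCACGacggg
Calr (chr8:84847070-84847098, plus strand): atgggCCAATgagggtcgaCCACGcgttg
Hsp90b1, farther (chr10:86705633-86705661, minus strand): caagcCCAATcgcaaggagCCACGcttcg
Hsp90b1, nearer (chr10:86705528-86705556, plus strand): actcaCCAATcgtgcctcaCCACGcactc
Canx (chr11:50325795-50325823, minus strand): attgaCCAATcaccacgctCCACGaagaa
Pdia6 (chr12:17266486-17266514, plus strand): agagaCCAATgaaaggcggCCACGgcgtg
Dnajc3 (chr14:118937822-118937850, plus strand): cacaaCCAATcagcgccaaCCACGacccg
Creld2 (chr15:88819515-88819543, minus strand): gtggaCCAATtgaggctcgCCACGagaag
Syvn1 (chr19:6046527-6046555, plus strand): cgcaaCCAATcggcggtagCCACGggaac
Hsp90b1 held 2 such elements, centred 202 and 98 bases before the start. An exact ERSE-II was found in 2 genes, against 0.0365% of all windows; its ATTGG is CCAAT read on the other strand, and neither gene held an ERSE. Its parts are in capitals in the same way.
Herpud1 (chr8:94386372-94386392, plus strand): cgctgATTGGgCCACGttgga
Dnajb11 (chr16:22857847-22857867, plus strand): cggcgATTGGcCCACGcctgg
A UPRE (TGACGTGG), an XBP1 and ATF6 element, was in 0 of the 25 and in 0.676% of all windows. A C/EBP-ATF site (TTGCATCA), of the kind ATF4 binds, was in 1 (Herpud1) and in 0.895% of all windows. A match is a run of letters and not a measured binding site. ERSE and ERSE-II are known from promoters of ER stress genes like those of the set. Their higher share here than among all windows is therefore no independent result.

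**Figure D4:**
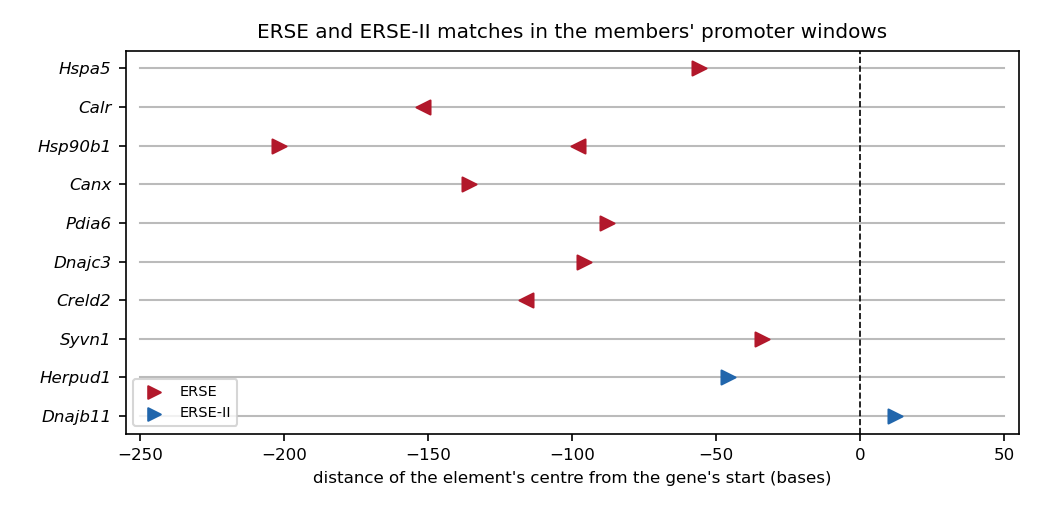
Position of each exact ERSE (red) and ERSE-II (blue) in the promoter windows of the 10 genes that hold one; the x axis is the distance in bases of the element's centre from the gene's start (dashed line), and arrows show the element's strand relative to the gene. Apart from Dnajb11, whose element lies just after the start, the elements lie 34 to 202 bases before it.

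The 10 genes with an ERSE or ERSE-II had a higher median level than the others. Their median level was 124 FPKM in the sheared Ift88 shRNA library, 120.0 in the sheared control and 124 in the static control. The 15 genes whose window held neither had medians of 64.4, 65.7 and 64.5 FPKM in the same libraries. The shear log2 ratio had a median of -0.016 and a range of -0.086 to 0.090 in the genes with an element, and a median of 0.064 and a range of -0.090 to 0.25 in those without. The knockdown log2 ratio had medians of 0.011 with and -0.027 without an element. These are descriptions of 10 and 15 genes, and the difference between them was not tested.

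Full windows are shown for Hspa5, the reference target of the response, and for Sdf2l1 and Pdia4, which had the widest shear and knockdown ratios. Capitals mark every CCAAT and CCACG on either strand, and each window reads 5′ to 3′ along the gene. That of Hspa5 (chr2:34771840-34772139, plus strand) holds 4 CCAAT and 1 CCACG. That of Sdf2l1 (chr16:17132334-17132633, minus strand) holds 4 and 3, and that of Pdia4 (chr6:47813463-47813762, minus strand) 3 and 1, in neither case with the exact spacing of an ERSE.
Hspa5: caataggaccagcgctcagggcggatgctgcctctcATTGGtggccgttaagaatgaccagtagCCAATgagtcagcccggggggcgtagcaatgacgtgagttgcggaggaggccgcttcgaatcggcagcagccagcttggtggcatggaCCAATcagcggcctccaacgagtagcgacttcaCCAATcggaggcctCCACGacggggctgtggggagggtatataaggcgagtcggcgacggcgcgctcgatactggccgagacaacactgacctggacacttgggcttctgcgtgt
Sdf2l1: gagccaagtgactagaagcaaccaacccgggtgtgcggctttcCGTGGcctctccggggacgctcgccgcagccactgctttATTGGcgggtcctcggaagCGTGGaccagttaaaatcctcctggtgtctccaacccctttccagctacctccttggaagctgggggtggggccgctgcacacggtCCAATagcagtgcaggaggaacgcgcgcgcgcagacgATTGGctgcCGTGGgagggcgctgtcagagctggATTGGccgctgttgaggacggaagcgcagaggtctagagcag
Pdia4: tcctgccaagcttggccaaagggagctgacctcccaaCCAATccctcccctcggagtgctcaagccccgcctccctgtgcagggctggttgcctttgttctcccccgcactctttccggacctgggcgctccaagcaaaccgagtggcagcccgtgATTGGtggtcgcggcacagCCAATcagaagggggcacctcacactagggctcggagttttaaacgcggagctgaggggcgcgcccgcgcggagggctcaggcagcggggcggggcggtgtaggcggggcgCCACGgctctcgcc

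The wider ER and stress genes were compared in the same way. Over 8 further lists, 164 genes averaged 1 FPKM or more. In the shear comparison 4 of them were higher by 1.2-fold and 0 lower, against 1.94% and 2.26% of all genes. In the knockdown comparison 2 were higher and 0 lower, against 3.25% and 2.29%. As shares of the 164 genes, these counts are near or below the background.

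Of the 13 genes of the PERK and ATF4 arm, 3 were at least 1.2-fold higher in sheared than in static control cells, where 1.94% of all genes were. The list was chosen with earlier results of these data known, so this count supports nothing by itself. Cebpb, a transcription factor gene of macrophages and of the stress response, was at 70.8 FPKM in sheared cells with Ift88 shRNA, 71.1 in sheared cells with control shRNA and 54.4 in static cells, a shear ratio of 1.31 (1.24 to 1.38). Atf5, a transcription factor gene translated when eIF2 alpha is phosphorylated, was at 47.6 FPKM in sheared cells with Ift88 shRNA, 45.9 in sheared cells with control shRNA and 37.8 in static cells, a shear ratio of 1.22 (1.15 to 1.29). Sesn2, a leucine sensor induced by ATF4, was at 11.2 FPKM in sheared cells with Ift88 shRNA, 10.9 in sheared cells with control shRNA and 8.91 in static cells, a shear ratio of 1.23 (1.13 to 1.34). In these 3 genes both sheared libraries lay above the static one and close to each other. Of the 13 genes, 7 were above 0 in the shear comparison and 6 below, where 46.0% of all genes were above 0. The counting interval lay above 1 for 5 and below 1 for 4, against 14.0% and 17.9% of all genes with estimated fragments. The list summed to 789 FPKM in the sheared control and 792 in the static control. Atf3, described further below, was among the genes that were lower. Trib3, Atf4, Ddit3 and Ppp1r15a were named after their values were seen. Trib3, a pseudokinase induced through ATF4 and CHOP, was at 6.41 FPKM with Ift88 shRNA under shear, 6.32 in the sheared control and 5.41 in the static control, a shear ratio of 1.17 (1.01 to 1.35). Atf4 itself was at 124 FPKM with Ift88 shRNA under shear, 122 in the sheared control and 113 in the static control, a shear ratio of 1.08 (1.05 to 1.12), so both genes were higher in both sheared libraries than in the static one. Ddit3 (CHOP), the factor of prolonged ER stress, was at 110.0 FPKM with Ift88 shRNA under shear, 113 in the sheared control and 108 in the static control, a shear ratio of 1.04 (0.9897 to 1.101). The phosphatase subunit gene Ppp1r15a (GADD34) was at 23.4 FPKM with Ift88 shRNA under shear, 23.6 in the sheared control and 23.9 in the static control. The most abundant gene of the list, Nfe2l2 (NRF2), was at 180.3 FPKM with Ift88 shRNA under shear, 170.0 in the sheared control and 192 in the static control, lower in both sheared libraries than in the static one. The list's median log2 ratio was 0.062 for shear and 0.014 for the knockdown, and no gene of it was past 1.2-fold in the knockdown comparison.

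Outside that arm, Fkbp11, a prolyl isomerase of the ER, was past the limit in the shear comparison, at 3.02 FPKM in sheared cells with Ift88 shRNA, 3.74 in sheared cells with control shRNA and 2.73 in static cells. Its ratio of 1.37 (0.941 to 1.97) rests on about 73 and 53 estimated fragments in the sheared and the static control, and its interval includes 1. In the knockdown comparison Creb3l2, an ATF6-like membrane-bound factor, was at 6.98 FPKM with Ift88 shRNA under shear, 5.62 in the sheared control and 5.798 in the static control, a ratio of 1.24 (1.16 to 1.33). Atp2a3, a calcium pump of the ER (SERCA3), was at 12.04 FPKM with Ift88 shRNA under shear, 9.36 in the sheared control and 9.73 in the static control, a ratio of 1.29 (1.1999 to 1.38). Its widespread relative Atp2a2 (SERCA2) went the other way without passing the limit, at 56.1 FPKM with Ift88 shRNA under shear, 65.6 in the sheared control and 66.04 in the static control, a ratio of 0.856 (0.8297 to 0.883). Atp2a2 was picked with its values in view.

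The remaining lists had no gene past 1.2-fold in either of these comparisons other than those named. The list of 31 further translocon, targeting, signal peptidase and oligosaccharyltransferase genes had 22 genes above 0 in the shear comparison, against 46.0% of all genes and 50.6% of those at or above the mean level of Ern1. Its median log2 ratio was 0.062, with a median of 0.0011 in the knockdown comparison. Its most abundant gene, the signal peptidase subunit gene Sec11c, was at 173 FPKM with Ift88 shRNA under shear, 176 in the sheared control and 163 in the static control. Further folding enzymes had medians of 0.011 for shear and 0.0020 for the knockdown over 30 genes, with the cyclophilin gene Ppib at 176 FPKM with Ift88 shRNA under shear, 179 in the sheared control and 176 in the static control. Further degradation genes had medians of 0.030 and -0.0014 over 33 genes, with Vcp, the ATPase that extracts proteins from the membrane, at 154 FPKM with Ift88 shRNA under shear, 158 in the sheared control and 159.7 in the static control. ATF6 and CREB3 family genes had medians of -0.056 and 0.071 over 9 genes, Creb3 being the most abundant at 51.5 FPKM with Ift88 shRNA under shear, 53.1 in the sheared control and 48.2 in the static control.

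Calcium handling genes had medians of -0.028 for shear and -0.057 for the knockdown over 14 genes, and the leading one was Tmbim6, a membrane protein that limits ER calcium, at 284 FPKM with Ift88 shRNA under shear, 282 in the sheared control and 274 in the static control. Retrieval and exit genes had medians of 0.0050 and -0.0036 over 22 genes. Its leading gene was Tmed2, a cargo receptor of vesicles between ER and Golgi, at 182 FPKM with Ift88 shRNA under shear, 201 in the sheared control and 192 in the static control. The heat shock chaperones of the cytosol and mitochondria had medians of -0.054 and 0.029 over 12 genes. Hspa8, the constitutive HSP70 of the cytosol, was at 887 FPKM with Ift88 shRNA under shear, 889 in the sheared control and 955 in the static control, lower in both sheared libraries than in the static one.

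Between sheared Ift88 shRNA and static control cells, 6 of these genes were higher by 1.2-fold and 5 lower, against 4.79% and 4.48% of all genes. Besides Cebpb, Atf5, Sesn2 and Atp2a3, the higher ones were Txndc5 and Chac1. Txndc5, a disulfide isomerase also called ERp46, was at 63.8 FPKM with Ift88 shRNA under shear, 57.6 in the sheared control and 52.7 in the static control, a ratio of 1.21 (1.16 to 1.26). Chac1, a glutathione-degrading enzyme induced by ATF4, was at 1.55 FPKM with Ift88 shRNA under shear, 1.22 in the sheared control and 1.08 in the static control, a ratio of 1.44 (0.999 to 2.05) whose interval includes 1. The lower ones were spread over 4 lists. Atf3, a stress-induced transcription factor gene, was at 151 FPKM with Ift88 shRNA under shear, 168 in the sheared control and 186 in the static control, a ratio of 0.808 (0.786 to 0.8301). Hsph1, a nucleotide exchange factor of cytosolic HSP70, was at 14.4 FPKM with Ift88 shRNA under shear, 16.01 in the sheared control and 18.5 in the static control, a ratio of 0.7796 (0.733 to 0.829). Hspd1, the mitochondrial chaperonin HSP60, was at 69.5 FPKM with Ift88 shRNA under shear, 75.4 in the sheared control and 84.01 in the static control, a ratio of 0.827 (0.797 to 0.857). In each of these 3 genes the static control was highest and the Ift88 shRNA library lowest. Nfyc, a subunit gene of the CCAAT-binding factor NF-Y, was at 11.9 FPKM with Ift88 shRNA under shear, 13.9 in the sheared control and 14.6 in the static control. Tmx3, a membrane-bound disulfide isomerase, was at 12.6 FPKM with Ift88 shRNA under shear, 13.96 in the sheared control and 15.4 in the static control, in the same order of libraries.

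**Figure D5:**
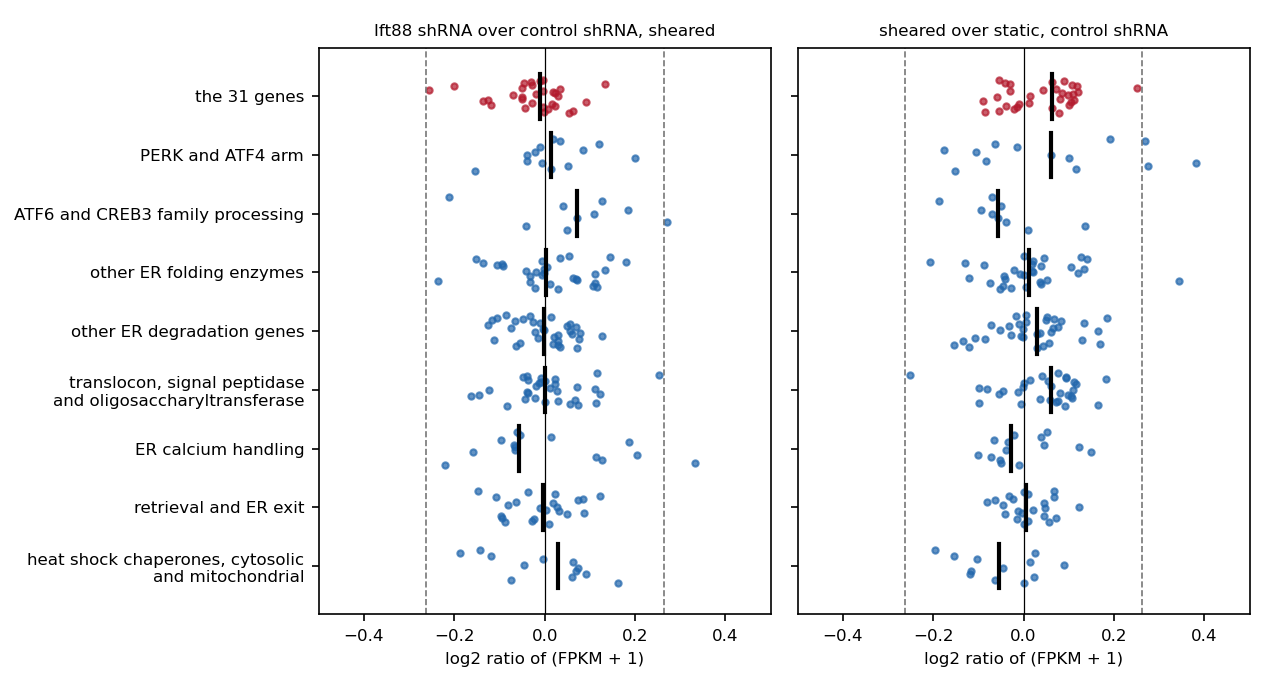
Log2 ratio of (FPKM + 1) for the 31 genes (red) and the genes of 8 further lists (blue), Ift88 shRNA over control shRNA under shear (left) and sheared over static with control shRNA (right); each point is 1 gene averaging 1 FPKM or more, black bars are list medians and dashed lines mark 1.2-fold. The points past the dashed lines are Creb3l2 and Atp2a3 on the left and Cebpb, Atf5, Sesn2 and Fkbp11 on the right.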

How the data were processed

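The authors deposited 1 table of FPKM values for 24067 genes, with 1 column per library. Tools listed in the submitters' processing notes are Cufflinks 2.2.1, TopHat2 2.0.13, Trimmomatic 0.32 and bcl2fastq 1.8.4, and the build is mm10. How they were set and whether strand was used is not given in the sources used here. Libraries came from TRIzol RNA and the TruSeq mRNA kit, per the labels' protocols. Because FPKM is relative to the library, abundant genes can shift all others.

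Ratios were computed as log2 of (FPKM + 1) between libraries with pandas 2.3.3. Depth was estimated as the value that turned most low FPKM values (up to 10 fragments, genes with 1 transcript of at least 1000 bases, GENCODE M21 lengths less an assumed mean fragment length of 180 bases) into whole fragments. Between 58.5% and 59.8% came out whole within 0.1, so no count model was used beyond the counting intervals. Fragments of a gene used its shortest transcript. Intervals are 95% Clopper-Pearson intervals (scipy 1.17.1), tested on simulated data. The simulation drew its counts with the same transcript lengths that the intervals use. It therefore cannot show how errors in those lengths affect the intervals. Of the gene IDs, 23987 matched RefSeq GRCm38.

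The members and the lists were chosen with earlier results of these data known. Named genes were all 31 members, Ift88, and from each further list the most abundant gene and up to 5 past 1.2-fold in a comparison. For the PERK and ATF4 arm, Ddit3, Atf4, Trib3 and Ppp1r15a were added after their values were seen, as were the marker genes Csf1r, Calcr and Sdc1. No library was left out. Protein features of the members were planned but not analysed here.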

Additional observations from a re-analysis of the deposited data

How the results depend on the processing

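The counts of the 31 genes past 1.2-fold were 0 in both directions in all 3 comparisons. They stayed at 0 with a pseudocount of 0.1 or 5, without the expression filter or with a mean FPKM of at least 5, with equal totals after leaving out the 100 most abundant genes, after centring for length and GC content, and at 1.5-fold. Centred on the median gene, 1 gene (Pdia4) was past the limit in the knockdown comparison, on the lower side. At 1.1-fold there was 1 higher for shear, 2 lower for the knockdown, and 3 higher and 2 lower between the sheared Ift88 shRNA and static control libraries. The median log2 ratio of the set ranged from 0.047 to 0.074 for shear, from -0.021 to -0.00021 for the knockdown, and from 0.0029 to 0.022 for the third comparison. After centring for length and GC content the shear value of Sdf2l1 was 0.17 in place of 0.25, and the number of the 31 genes above 0 was 23 in place of 19. For shear, Canx was at 0.010 in place of -0.054, Pdia3 at 0.0061 in place of -0.030 and Sel1l at 0.027 in place of -0.031. Hsp90b1 was at -0.013 in place of -0.059. Over the 3 comparisons, 22 values of named genes moved by at least their counting half-width, and 89 were labelled the same. The cause was not tested. With equal totals after leaving out the 100 most abundant genes, 15 of the 31 in place of 11 were above 0 in the knockdown comparison, so the direction of single small ratios depends on the scaling. No paired analysis was possible because each group had 1 library, and no library could be left out in turn. Counting error alone allows a log2 half-width of 0.054 for the median gene of the set, and differences between cultures are not measured.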
